A study of Mus musculus with 6 samples.

Results

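The genes described here encode cation channels, most of them permeable to calcium, and the sensors of calcium stores. Many of the channels open on heat, cold, membrane force, receptor signals or empty stores. The genes were taken by symbol from the array annotation. The rule covered every Trpa, Trpc, Trpm and Trpv gene, the Piezo, Orai, Stim and mucolipin genes and Pkd2, which makes 33 mouse genes, and 29 of them had a probe set that the annotation gives to that 1 symbol. These 29 of 18193 measured genes were read by 56 probe sets, 13 genes by a single one and 16 by several. The others were not analysed here. Where a gene had several probe sets, the one with the highest mean over the 6 arrays was used and the others served as checks.

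Gene expression was measured in cultures of commercially supplied mouse mesenchymal stem cells, which can form fat, bone and cartilage. Irradiated cultures were exposed for 2 h to a continuous-wave laser at 2.52 THz in the far infrared, and their controls stood beside them without exposure. Both groups were held at 26 to 27 °C and had received 1 µM rosiglitazone, 5 µg/ml insulin, 100 µM isobutylmethylxanthine and 1 µM dexamethasone anew 48 h earlier, a mixture widely used to induce fat-cell formation. The study ran 3 independent experiments with 1 irradiated and 1 control culture each, RNA was taken when the exposure ended, and every culture gave 1 Affymetrix mouse array. The labels give neither a mouse strain nor the number of animals behind the cells, and all cultures held the mixture. The comparison is that of each exposed culture with the unexposed one of the same experiment.

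As background, cells keep calcium low in the cytosol and high in the endoplasmic reticulum. When the store empties, STIM proteins in its membrane sense the loss, gather under the plasma membrane and open ORAI channels, which is called store-operated calcium entry. TRP channels form a large family of cation channels, many of them gated by temperature, lipids or irritants, and Piezo channels open when the membrane is stretched. In cells of the fat lineage calcium entry is known to influence differentiation, and Trpv4 in mouse fat cells is known as a brake on thermogenic genes.

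The labelled cell type was compared with its markers. Of 9 mesenchymal stromal markers 8 lay at or above the median gene, Thy1 being the exception at 3.88 on the log2 scale, and all 5 measured fat-cell markers did, from Pparg at 9.88 to Fabp4 at 14.36. All 7 macrophage markers also did, from Aif1 at 7.02 to Lyz2 at 14.17, whereas none of 6 sensory neuron, 5 endothelial or 5 mast cell markers did. Of 4 smooth muscle markers 3 did, up to Acta2 at 12.58, and of 5 epithelial markers only Epcam at 7.53. The mean level of the macrophage list ranged from 11.07 to 11.60 in irradiated cultures and from 11.24 to 11.48 in controls, and that of the smooth muscle list from 8.32 to 8.47 in irradiated cultures and from 7.86 to 8.64 in controls. The smooth muscle list had median differences of -0.31, 0.56 and 0.40 in experiments 1 to 3, and its part in the channel values was not tested. Array medians lay between 5.01 and 5.05, and arrays have no read depth, so that the number of arrays limits the precision. The control of experiment 3 stood apart in 3' minus 5' control probe sets, at 0.68 for actin and 0.11 for Gapdh, where the 5 other arrays lay between 0.50 and 0.57 for actin and between -0.10 and -0.08 for Gapdh. Several differences below are also given without experiment 3, or without another experiment that moved them.

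Store-operated genes, Piezo1, Trpm7, Trpv2 and 2 mucolipins made up the bright part of the family. The median gene had a level of 6.46, the mean over the 6 arrays on the log2 scale of RMA, the method by which the authors corrected, normalized and summarised the probes. Of the 29 genes 11 lay at or above it, and those 11 were above it on each of the 6 arrays. They were Piezo1 (10.66), Trpm7 (10.12), Stim2 (8.89), Trpv2 (8.80), Mcoln1 (8.78), Trpc1 (8.19), Orai3 (7.92), Stim1 (7.88), Mcoln2 (7.57), Orai2 (7.50) and Orai1 (7.36). Both STIM and all 3 ORAI genes were among them, against 1 of 6 TRPC, 1 of 8 TRPM, 1 of 4 TRPV, 1 of 2 Piezo and 2 of 3 mucolipin genes. Since probes differ in brightness for the same amount of RNA, these levels place a gene on the scale of the array and give no ratio between genes.

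The temperature-gated genes best known from sensory neurons were dim. Trpm8, the cold and menthol receptor, had a level of 2.70 and lay at the 4.3 percentile of all genes. Trpv1, the capsaicin and heat receptor, had 2.94 (7.0 percentile), and Trpa1, which opens on irritants, 4.87 (33.6 percentile). Trpm3, a heat-activated channel, had 4.31. The lowest level was that of Trpc6 at 2.46 (2.0 percentile). No detection calls were used, so none of these genes is called absent. Between the bright and the dim genes lay Trpv4, a channel opened by warmth and cell swelling, whose level of 6.455 was just under the median gene at 6.457, and Trpm2, opened by ADP-ribose and oxidative stress, at 6.38. None of the 29 genes lay between Trpv4 and Orai1. Neighbours inside the bright group, such as Stim2, Trpv2 and Mcoln1, overlapped in their values over the arrays.

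**Figure D1:**
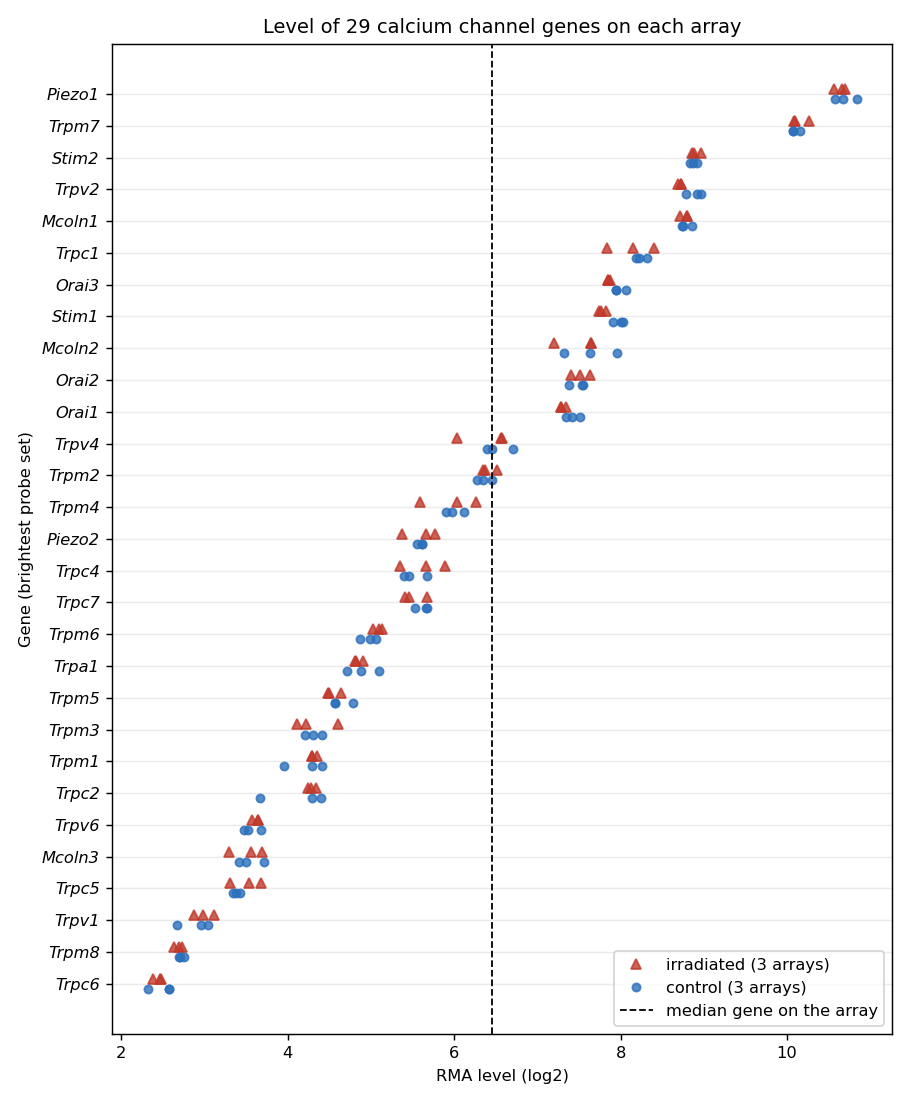
Level of each of the 29 genes (rows, brightest first) on the log2 scale of RMA, with 3 irradiated arrays as triangles and 3 control arrays as circles. The dashed line is the median gene at 6.46, with 11 genes above it, and neighbours in the order, such as Stim2, Trpv2 and Mcoln1, overlap.

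The promoters of the genes on either side of that line differed in a feature that the choice of genes did not use. RefSeq promoter windows of 300 bases, 250 before to 50 after the annotated start on GRCm38.p6, were on hand for 26 of the 29 genes (not for Trpa1, Trpm4 and Piezo2). The only motif counted was CG, which reads the same on both strands, and for a gene with several windows the one with the most CG was taken. The 4 windows below are shown because they span the contrast, from Piezo1 and Trpm7, the brightest genes, over Trpv2, bright with few CG, to Trpm8, which was dim. They lie at chr8:122551280-122551579 (minus strand), chr2:126876212-126876511 (minus strand), chr11:62575377-62575676 (plus strand) and chr1:88306485-88306784 (plus strand), in that order, and are written 5′ to 3′ with each CG in capitals.
Piezo1: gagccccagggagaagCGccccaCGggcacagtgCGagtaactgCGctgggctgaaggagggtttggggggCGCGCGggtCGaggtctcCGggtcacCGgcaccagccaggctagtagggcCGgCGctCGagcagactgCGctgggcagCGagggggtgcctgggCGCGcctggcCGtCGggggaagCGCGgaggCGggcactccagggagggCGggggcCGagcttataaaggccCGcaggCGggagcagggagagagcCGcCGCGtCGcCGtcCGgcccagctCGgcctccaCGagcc
Trpm7: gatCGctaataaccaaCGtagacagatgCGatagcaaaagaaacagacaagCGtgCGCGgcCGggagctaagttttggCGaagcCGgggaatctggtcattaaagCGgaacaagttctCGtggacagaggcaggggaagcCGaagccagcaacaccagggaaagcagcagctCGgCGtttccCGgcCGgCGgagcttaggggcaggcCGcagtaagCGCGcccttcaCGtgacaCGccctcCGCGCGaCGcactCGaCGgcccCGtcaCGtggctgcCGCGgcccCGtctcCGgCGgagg
Trpv2: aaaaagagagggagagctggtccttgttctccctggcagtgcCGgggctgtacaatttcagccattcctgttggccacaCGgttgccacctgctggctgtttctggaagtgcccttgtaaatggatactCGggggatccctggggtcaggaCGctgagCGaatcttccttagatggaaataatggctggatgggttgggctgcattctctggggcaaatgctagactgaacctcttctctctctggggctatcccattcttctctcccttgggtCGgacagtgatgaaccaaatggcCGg
Trpm8: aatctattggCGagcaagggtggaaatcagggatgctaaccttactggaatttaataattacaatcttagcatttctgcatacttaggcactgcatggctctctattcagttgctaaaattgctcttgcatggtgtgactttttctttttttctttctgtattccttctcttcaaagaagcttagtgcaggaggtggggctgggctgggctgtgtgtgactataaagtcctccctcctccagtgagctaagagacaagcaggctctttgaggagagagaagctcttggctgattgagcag

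The Piezo1 window held 34 CG, that of Trpm7 35, that of Trpv2 7 and that of Trpm8 a single one. Over the 11 bright genes the count ran from 7 to 39 with a median of 30, and over 15 genes below the median level from 1 to 30 with a median of 9. At least 20 CG stood in 9 of the 11 bright windows, all but Trpv2 and Orai3, and in 2 of the 15 others, Trpv4 and Trpm3. That threshold was chosen after the counts were seen. The same direction held across the array, where 64.1% of 7470 genes at or above the median level had at least 20 CG, against 26.9% of 6982 genes below it. Both shares rest on the window with the most CG of each gene. Of all 32851 windows, with no choice per gene and no match to the array, 26.5% held at least 20, and 94.6% at least 1. These window shares are therefore not a base rate for the shares of genes. The contrast among the channels is thus one that genes in general showed, and it is given as a description with no test.

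**Figure D2:**
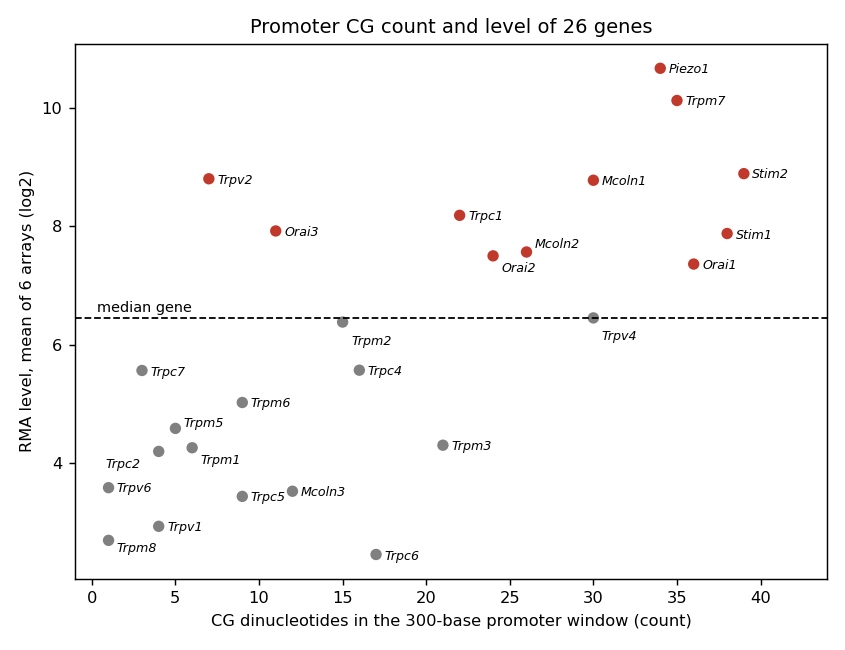
CG dinucleotides in the 300-base RefSeq promoter window (horizontal axis, count) against level (vertical axis, log2, mean of 6 arrays) for 26 genes, with those above the median gene in red and the others in grey. Trpv2 and Orai3 are bright with 7 and 11 CG, and Trpv4, at the line, has 30.

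None of the channel genes passed the test of irradiated against control cultures. With experiments as blocks and Benjamini-Hochberg adjustment over all 18193 genes, limma called 0 of 29 members, where it called 0 genes in all (0.0%). The smallest adjusted p was 0.995, among the members as among all genes. At an unadjusted p under 0.05 in limma there was 1 member, Stim1, beside 603 genes in all (3.31%). Differences ran from -0.21 for Stim1 to 0.17 for Trpc2. All 29 confidence intervals at 95% lay within 1.5-fold in either direction, as did those of 17884 of all 18193 genes. The outermost bounds among the channels were -0.43 for Trpc1 and 0.52 for the dim Trpc2, and correspond to 1.35-fold lower and 1.43-fold higher. These intervals are per gene, without adjustment for the number of genes, and concern RMA values, which tend to understate changes of dim probe sets. They are those of the brightest probe set of each gene. In the fit over probe sets the interval of the second Trpc2 probe set (1436854_at) reached 0.61, beyond 1.5-fold (0.585 log2 units).

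Of the 29 genes 13 were higher and 16 lower, with a median difference of -0.03 log2 units where the median over all genes was -0.01. The median size of a difference, its sign set aside, was 0.09 for the channels and 0.063 for all genes. The 11 bright channels had a median of -0.11, with 8 lower and 3 higher, beside a median of -0.017 over the 9099 bright genes of the array. Their medians in experiments 1 to 3 were -0.12, -0.06 and -0.05, where those of all bright genes were -0.05, 0.0 and 0.0. Of the 9099 bright genes 5294 were lower. The 18 dimmer channels had a median of 0.0033, with 10 higher and 8 lower. For 26 of the 29 genes the difference was smaller than the range of that gene's 3 controls, as it was for 87.2% of all genes.

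**Figure D3:**
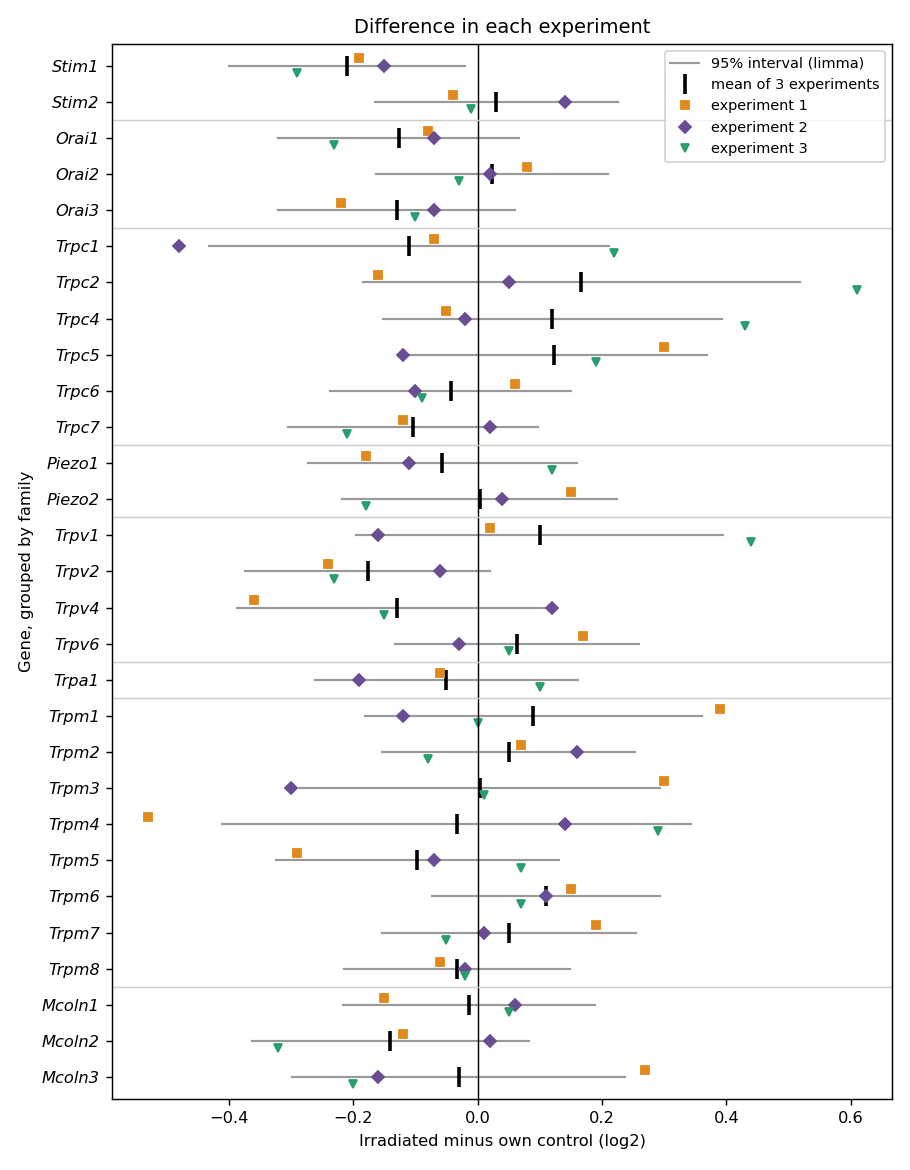
Irradiated minus own control (horizontal axis, log2) for the 29 genes grouped by family (rows), with a symbol per experiment, a black bar for the mean of 3 experiments and a grey line for the 95% interval from limma. Stim1 is the one gene whose interval, -0.40 to -0.021, leaves out 0, and it did not pass after adjustment.

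In 4 bright genes, Stim1, Orai1, Orai3 and Trpv2, all 3 irradiated cultures read below all 3 controls. They are 4 of 29 members (13.8%) and 4 of the 11 bright ones (36.4%), where 5.36% of all genes and 6.69% of the bright genes on the array had groups that did not overlap in that direction. No member had all irradiated cultures above all controls, as 2.90% of all genes had. The same 4 and Trpm8 were lower in all 3 experiments, against 12.8% of all genes, and Trpm6 was higher in all 3, against 8.23%. With 29 genes these are small counts, and the shares were not tested.

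Stim1 is the calcium sensor of the endoplasmic reticulum that couples empty stores to ORAI channels. On its brighter probe set (1448320_at) it read 7.82, 7.76 and 7.74 in the irradiated cultures of experiments 1 to 3, against 8.01, 7.91 and 8.03 in their controls. Each irradiated culture was below its control, by 0.15 at the least, and the groups did not overlap. The mean difference was -0.21 (SE 0.079, 95% interval -0.40 to -0.021, n = 3 pairs, as for every difference here), with an unadjusted p of 0.0344 and an adjusted p of 0.995 in limma. Its size lay at the 95.1 percentile of all genes. The other probe set (1436945_x_at) has a suffix that marks probes which may also bind other transcripts. At a similar level of 7.53, it read 7.48, 7.58 and 7.62 in irradiated cultures and 7.44, 7.52 and 7.52 in controls, a difference of 0.067 (SE 0.086). It was higher in each of the 3 experiments, so the 2 probe sets of Stim1 ran in opposite directions each time. Without experiment 3 the brighter probe set stood at -0.17. Stim2, a second store sensor that responds to smaller losses of calcium, read 8.88, 8.97 and 8.86 in irradiated cultures and 8.92, 8.83 and 8.87 in controls, with overlapping groups and a difference of 0.03 (SE 0.082).

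The ORAI genes encode the pore of the store-operated channel. Orai1 read 7.34, 7.28 and 7.28 in irradiated cultures, against 7.42, 7.35 and 7.51 in controls. Every irradiated value was below the lowest control, by 0.01 for the closest, and the mean difference was -0.13 (SE 0.081, 95% interval -0.32 to 0.067). Its dimmer probe set, at 5.74, differed by -0.07, with -0.16, 0.07 and -0.12 in the 3 experiments. Orai3 read 7.85, 7.87 and 7.85 in irradiated cultures and 8.07, 7.94 and 7.95 in controls. Here the irradiated cultures agreed within 0.02 and the controls spread over 0.13, and the difference was -0.13 (SE 0.080). Orai2 gave 7.63, 7.40 and 7.51 in irradiated cultures and 7.55, 7.38 and 7.54 in controls, which overlapped, with a difference of 0.023 (SE 0.078), and its other probe set stood at 0.067. Without experiment 3 Orai1 stood at -0.075 and Orai3 at -0.145.

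TRPC channels are opened mainly through receptors that activate phospholipase C, and Trpc1, which joins other TRPC subunits, was the one bright member. It read 8.15, 7.84 and 8.40 in irradiated cultures and 8.22, 8.32 and 8.18 in controls. The irradiated cultures spread on both sides of the controls, and the differences of -0.07, -0.48 and 0.22 averaged -0.11 (SE 0.13), while the dim second probe set stood at 0.0067. Trpc4 and Trpc5, closely related subunits, differed by 0.12 (SE 0.11) and 0.12 (SE 0.10). Trpc4 read 5.35, 5.66 and 5.89 in irradiated cultures and 5.40, 5.68 and 5.46 in controls, so its difference came from experiment 3, without which it was -0.035. Trpc5, which can also open on cooling, read 3.68, 3.31 and 3.53 in irradiated cultures and 3.38, 3.43 and 3.34 in controls, at a level where few genes are dimmer (13.7 percentile). Its difference stood at 0.035 without experiment 1 and 0.25 without experiment 2.

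Trpc2, the pheromone-transduction channel of the mouse vomeronasal organ, had the largest upward difference, 0.17 (SE 0.15). It read 4.24, 4.34 and 4.28 in irradiated cultures and 4.40, 4.29 and 3.67 in controls. The control of experiment 3 was the lowest of the 6 arrays, and without that experiment the difference was -0.055. The second Trpc2 probe set also read 3.67 in that control. Its difference was 0.26 (SE 0.15), with -0.21, 0.47 and 0.52 in experiments 1 to 3, so it was also higher in experiment 2. A further 2 probe sets carry Trpc2 together with another symbol and were not used. Trpc7 and Trpc6, which diacylglycerol opens, differed by -0.10 (SE 0.084) and -0.043 (SE 0.081). Trpc7 read 5.41, 5.68 and 5.46 in irradiated cultures and 5.53, 5.66 and 5.67 in controls, with overlap.

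Piezo1, the stretch-activated channel of many non-neuronal cells, was the brightest gene of the set and lay at the 93.5 percentile of all genes. It read 10.66, 10.56 and 10.69 in irradiated cultures and 10.84, 10.67 and 10.57 in controls. The groups overlapped, the sign turned in experiment 3, and the difference was -0.057 (SE 0.091, 95% interval -0.27 to 0.16). Piezo2, the touch receptor channel of sensory neurons, had a level of 5.60 and a difference of 0.0033 (SE 0.093), and its dimmer probe set stood at -0.14.

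Among the TRPV genes Trpv2, a channel opened by strong heat and membrane stretch that macrophages are known to express, stood lowest against its controls. It read 8.73, 8.72 and 8.69 in irradiated cultures and 8.97, 8.78 and 8.92 in controls. The irradiated cultures lay within 0.04 of each other and below all controls, and the pair of experiment 2 differed least, by -0.06. The mean difference was -0.18 (SE 0.082, 95% interval -0.37 to 0.020), at an unadjusted p of 0.0709 and an adjusted p of 0.995 in limma, and it stood at -0.15 without experiment 3. It has 1 probe set, so no second reading was available. The macrophage list had median differences of -0.15, 0.03 and 0.12 in the 3 experiments, against -0.24, -0.06 and -0.23 for Trpv2, and its part in the Trpv2 values was not tested. In bulk RNA fewer cells of a type and less RNA per cell cannot be told apart.

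Trpv4 read 6.04, 6.57 and 6.56 in irradiated cultures and 6.40, 6.45 and 6.71 in controls. The irradiated culture of experiment 1 was the lowest of the 6, the sign was opposite in experiment 2, and the difference was -0.13 (SE 0.11). It stood at -0.015 without experiment 1 and -0.26 without experiment 2. Trpv1 differed by 0.10 (SE 0.12), with 0.44 in experiment 3 where its control, at 2.67, was the lowest of the 6 arrays, and by -0.07 without that experiment. Trpv6, the calcium uptake channel of the gut, stood at 0.063 (SE 0.082) and Trpa1 at -0.05 (SE 0.089).

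Trpm7, a broadly expressed channel for magnesium, calcium and zinc that carries its own kinase, was the bright TRPM gene. It read 10.26, 10.08 and 10.10 in irradiated cultures and 10.07, 10.07 and 10.15 in controls, a difference of 0.05 (SE 0.086) with overlap. Its other 3 probe sets stood at 0.11, -0.04 and 0.02. Trpm6, the related magnesium channel of kidney and gut, read 5.02, 5.10 and 5.13 in irradiated cultures and 4.87, 4.99 and 5.06 in controls. It was higher in each experiment, by 0.15, 0.11 and 0.07, although the groups overlapped, and averaged 0.11 (SE 0.077), while its dimmer probe set stood at -0.05. Trpm4, a calcium-activated channel that passes monovalent ions, varied most between experiments, with differences of -0.53, 0.14 and 0.29 (mean -0.033, SE 0.16).

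The other TRPM genes were closer to 0 or dim. Trpm2 stood at 0.05 (SE 0.085), Trpm1, a channel of retinal bipolar cells, at 0.09 (SE 0.11), Trpm3 at 0.0033 (SE 0.12) and Trpm8 at -0.033 (SE 0.076). Trpm5, a taste-cell channel, stood at -0.097 (SE 0.095) on its brightest probe set. Another of its probe sets (1443413_s_at, level 3.10) read 3.23, 3.35 and 3.20 in irradiated cultures and 2.79, 2.99 and 3.01 in controls. These groups did not overlap, as was so for 3.77% of all probe sets in that direction. The difference was 0.33 (SE 0.093), at an unadjusted p of 0.00888 and an adjusted p of 0.995 in limma over 45037 probe sets, of which it called 0 (0.0%). The suffix of that probe set marks probes shared by several transcripts, and the third Trpm5 probe set stood at -0.03. Of the 56 channel probe sets, limma gave 2 an unadjusted p under 0.05, this one and the brighter Stim1 probe set, where 3.77% of all probe sets had one.

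Mucolipins release calcium and other cations from lysosomes and endosomes. Mcoln1 read 8.71, 8.80 and 8.80 in irradiated cultures and 8.86, 8.74 and 8.75 in controls. The difference was -0.013 (SE 0.085), and the other probe sets of Mcoln1 stood at -0.03 and -0.047. Its brightest probe set (1416672_s_at) has the suffix of shared probes given above for Trpm5, as has the dimmest of Trpm7 (1431355_s_at). Mcoln2, which is known from immune cells including macrophages, read 7.20, 7.65 and 7.64 in irradiated cultures and 7.32, 7.63 and 7.96 in controls. Both arrays of experiment 1 were the lowest, and the 6 arrays spanned 0.76, the widest range in the set, where the median range over all genes was 0.30. The difference was -0.14 (SE 0.093), and -0.05 without experiment 3. Mcoln3 was dim at 3.53 and stood at -0.03 (SE 0.11), and its other probe set, at 3.18, was at 0.17 with 0.19, 0.16 and 0.17 in the 3 experiments.

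**Figure D4:**
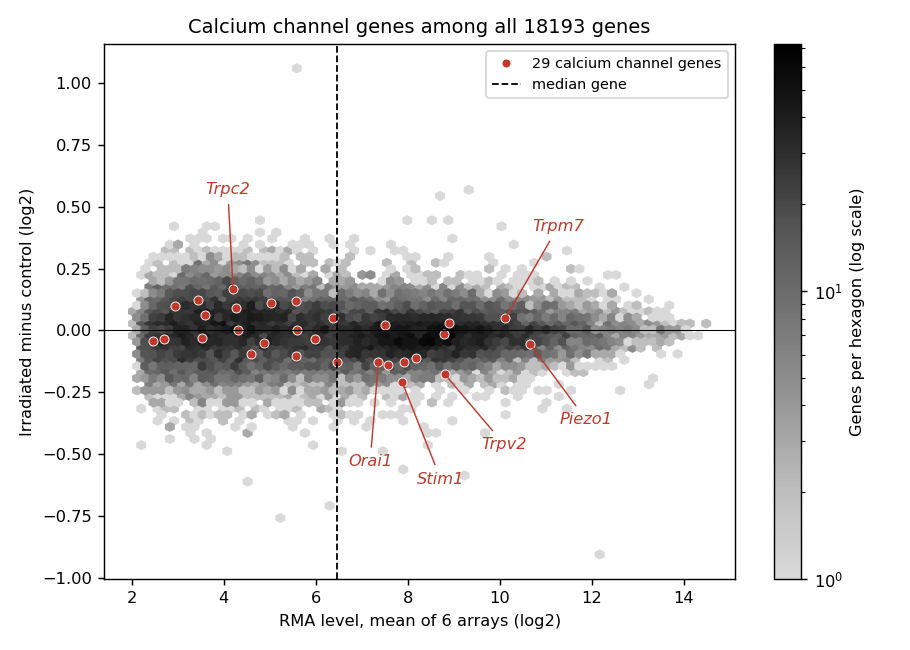
Irradiated minus control (vertical axis, log2, mean of 3 experiments) against level (horizontal axis, log2, mean of 6 arrays), with all 18193 genes as grey hexagons shaded by number on a log scale and the 29 channel genes in red. The channels lie inside the cloud of all genes, between -0.21 (Stim1) and 0.17 (Trpc2).

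Second probe sets often disagreed in sign. Of the 16 genes with several, 6 had all probe sets on 1 side of 0 (Orai1, Orai2, Stim2, Trpc2, Trpm2 and Mcoln1), and 10 had them on both sides. Most of the second readings were dim, and 16 of the 56 probe sets reached the median gene level. Stim1 is the gene in which both probe sets were bright and stood furthest apart among such pairs, at -0.21 and 0.067.

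**Figure D5:**
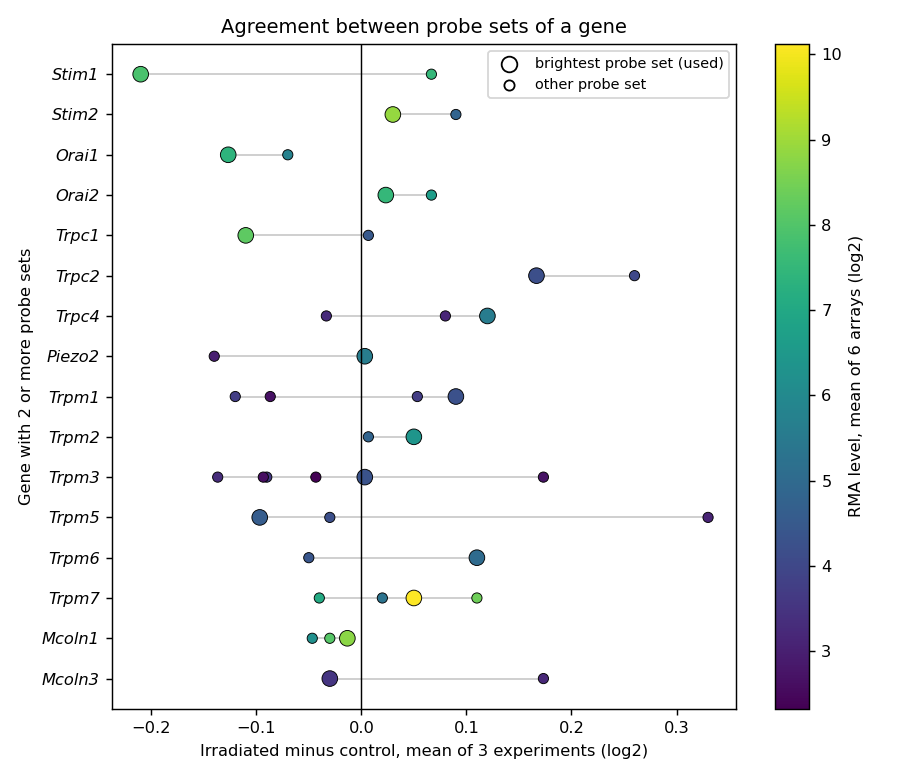
Irradiated minus control (horizontal axis, log2, mean of 3 experiments) for every probe set of the 16 genes that have several (rows), coloured by level, with the brightest probe set of a gene as a large circle. Probe sets lie on both sides of 0 in 10 genes, Stim1 among them.

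Other genes of calcium entry and handling were counted from lists written from textbook knowledge. A further list, of temperature- or force-gated channels, was counted with them and includes subunits of anion channels. Of 105 listed genes 93 were measured and none passed, with limma also giving 0 an unadjusted p under 0.05. Of the 93 genes 43 were higher and 50 lower, at a median of -0.013 log2 units, close to that of all genes. Groups did not overlap in 2 genes with irradiated cultures lower and in 3 with them higher, against 5.36 and 2.90% of all genes.

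Phospholipases, IP3 and ryanodine receptors and SERCA pumps, which empty and refill the store, had 10 of 17 genes higher and a median of 0.037. Within this list Atp2a3, a SERCA pump of blood and endothelial cells, stood at -0.24 (SE 0.099; -0.02, -0.27 and -0.42 in the 3 experiments), and the phospholipases Plcb3 and Plcd1 at 0.14 (SE 0.086) and 0.11 (SE 0.086). All 3 were largest in size in experiment 3, and without it Atp2a3 stood at -0.15, Plcb3 at 0.07 and Plcd1 at 0.045. Of 10 regulators of STIM and ORAI 8 were lower on average, at a median of -0.05, where 9689 of all 18193 genes were lower. In experiments 1 to 3 taken singly, 5, 7 and 5 of the 10 regulators were lower. Among them were Stimate, which promotes STIM1 activation, at -0.14 (SE 0.078; -0.10, -0.10 and -0.21), and Homer3, a scaffold protein, at -0.19 (SE 0.11), while Asph, whose locus also encodes the store protein junctate, was at 0.097 (SE 0.082). Homer3 stood at -0.10 without experiment 3 and -0.34 without experiment 2, and Asph at 0.04 without experiment 1.

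Plasma membrane and mitochondrial calcium transporters were split, with 7 of 14 higher and 7 lower (median -0.0083). The mitochondrial uniporter Mcu stood at -0.06 (SE 0.078), its regulator Micu2 at 0.083 (SE 0.086) and the outer membrane channel Vdac1 at -0.093 (SE 0.086). Mcu stood at -0.025 and Micu2 at 0.035 without experiment 3, and Vdac1 at -0.025 without experiment 2. Calmodulin, calcineurin and NFAT genes, through which calcium entry reaches transcription, had a median of -0.013, with 8 of 17 higher. Of these Camk2d stood at 0.17 (SE 0.11), Nfat5 at 0.17 (SE 0.11) and Nfatc4 at -0.11 (SE 0.096). Camk2d differed by 0.45, 0.12 and -0.05 in experiments 1 to 3, and by 0.035 without experiment 1. Nfat5 differed by -0.08, 0.19 and 0.39, and by 0.055 without experiment 3. Nfatc4 stood at -0.045 without experiment 1 and -0.22 without experiment 2.

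The list of other temperature- or force-gated channels had a median of -0.027, with 9 of 19 higher and 10 lower. It was drawn broadly, and gating of this kind is not established for every gene on it, Tmem120a and Tpcn2 among them. Lrrc8d, a subunit of the volume-regulated anion channel, stood at -0.19 (SE 0.086), Tmem120a at -0.18 (SE 0.16; -0.69 in experiment 2) and the lysosomal channel Tpcn2 at -0.10 (SE 0.099). Lrrc8d stood at -0.13 without experiment 3, whereas Tmem120a was at 0.08 without experiment 2 and Tpcn2 at 0.01 without experiment 1, so that the sign of both turned. Of 16 voltage-gated calcium channel genes only Cacna2d1 and Cacna1d reached the median gene level, at differences of -0.11 (SE 0.088) and -0.097 (SE 0.11), and 7 of the 16 were higher. Cacna2d1 stood at -0.035 without experiment 3, and Cacna1d turned to 0.04 without experiment 1.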

How the data were processed

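Per the submitters' processing notes the authors processed the arrays with RMA in the affy package and used limma, with versions not given in the sources used here. The deposited values are taken as log2 expression per probe set, from their range of 1.73 to 14.53, and are rounded to 2 decimals. RMA brings all arrays to 1 distribution, which hides any shift shared by all transcripts. No detection calls, scanner files or array dates were used here.

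Of 45037 probe sets other than the array's 64 controls, 34945 had 1 symbol in the platform annotation given, 932 several and 9160 none. Entrez identifiers tied 34741 of them to a current gene table, and 0 symbols differed. The brightest probe set stood for each of 18193 genes. limma 3.58.1 in R 4.3.3 (lmFit, eBayes, defaults) compared irradiated with control cultures with experiments as blocks, at a p under 0.05 after Benjamini-Hochberg adjustment over all genes, with no filter on dim ones. The series' design text pairs each irradiated culture with its own control. Across genes, the deviations from the group mean of the 2 arrays of an experiment correlated at 0.15, -0.09 and -0.012 in experiments 1 to 3. In limma each gene's spread between experiments, with 2 degrees of freedom, is drawn toward a prior from all genes, with 4.66. For probe sets the prior had 5.32. The standard errors, intervals and p-values rest on this mixture and not on the gene's own spread alone.

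All measured channels are reported, those at or above the median gene with every array, and of the rest the 6 with the largest difference. Of each list other than the cell-type markers up to 3 genes at or above the median gene with the largest difference are named. Members and lists were chosen with earlier results of these data known. The code was tested on simulated data. Alternatives were a fit without the block, without moderation or with a prior trend, a filter on dim genes, centred arrays, the mean of a gene's probe sets, and each experiment left out.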

Additional observations from a re-analysis of the deposited data

How the results depend on the processing

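The number of members called stayed at 0 in limma under all 9 alternatives, with 0 to 2 members at an unadjusted p under 0.05. So did the number of genes called from the lists of other calcium and channel genes, with 0 to 3. Without the replicate block limma called 0 genes (649 at an unadjusted p under 0.05) and 0 probe sets (1841), and the block changed no call. Without moderation an ordinary paired test called 8 genes and 12 probe sets, and none of these 8 genes was a member. That test has 2 degrees of freedom and used values rounded to 2 decimals, where nearly equal differences in the 3 experiments leave almost no spread. The part of rounding in these calls was not tested. The median difference over members was -0.03, and -0.11 over the 11 bright ones alone. With the median of all probe sets as the line, 18 members lay above it in place of 11, since that median is lower.

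Of 29 members 12 kept their sign when each experiment was left out: Stim1 (-0.24 to -0.17), Orai1 (-0.155 to -0.075), Orai3 (-0.16 to -0.085), Trpv2 (-0.235 to -0.145), Trpv4 (-0.255 to -0.015), Trpv6 (0.01 to 0.11), Trpc5 (0.035 to 0.245), Trpc6 (-0.095 to -0.015), Trpc7 (-0.165 to -0.05), Trpm6 (0.09 to 0.13), Trpm8 (-0.04 to -0.02) and Mcoln2 (-0.22 to -0.05). Trpm5 (-0.18 to 0.0) stood at exactly 0 without experiment 1. The other 16 turned, and the cause was not tested. Their ranges were -0.025 to 0.065 for Stim2, -0.005 to 0.05 for Orai2, -0.275 to 0.075 for Trpc1, -0.055 to 0.33 for Trpc2, -0.035 to 0.205 for Trpc4, -0.145 to 0.005 for Piezo1, -0.07 to 0.095 for Piezo2, -0.07 to 0.23 for Trpv1, -0.125 to 0.02 for Trpa1, -0.06 to 0.195 for Trpm1, -0.005 to 0.115 for Trpm2, -0.145 to 0.155 for Trpm3, -0.195 to 0.215 for Trpm4, -0.02 to 0.10 for Trpm7, -0.05 to 0.055 for Mcoln1 and -0.18 to 0.055 for Mcoln3. Under the mean of all probe sets Piezo2 (-0.068), Trpm1 (-0.016), Trpm3 (-0.031), Trpm5 (0.068) and Mcoln3 (0.072) changed sign. Stim1 kept its sign under that setting but stood at -0.072 (unadjusted p 0.338 in limma), against -0.21 on its brighter probe set. With arrays centred on their median Piezo2 and Trpm3 changed sign, both at -0.0067. The 16 genes that turned in the leave-one-out fits include the bright Stim2, Orai2, Trpc1, Piezo1, Trpm7 and Mcoln1. With 3 pairs, small differences are not resolved here, in the bright channels or in the dim ones, whose probe sets RMA compresses.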
